A study of Mus musculus with 10 samples.

Results

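The ADAM, ADAMTS, MMP and TIMP genes were taken as the rows of the expression table whose gene symbol starts with *Adam* or *Mmp* and a digit or with *Adamts*, or is 1 of the 4 *Timp* genes. The table held 60 of them among 20974 genes: 18 ADAM, 18 ADAMTS, 5 ADAMTS-like, 15 MMP and 4 TIMP genes. Another 24 members in the gene annotation used here were not analysed here. The table came from RNA-sequencing of 10 single mouse embryos at embryonic day (E) 7.5, 5 *Rreb1*-/- and 5 *Rreb1*+/+, with 1 library per embryo. *Rreb1* encodes a zinc finger transcription factor, and the study asked which genes change with its loss. It described disorganized epithelia in *Rreb1*-/- embryos, in which invasive cells were rare. Frequent invasive cells, ectopic basement membrane breaks and Laminin tracks were described in chimeras of wild-type and *Rreb1*-/- cells, which were not sequenced here. The *Rreb1*-/- embryos carried a CRISPR-Cas9 deletion of most of the coding part of exon 6 on both alleles. The study made a large and a small deletion, and which of them each sequenced embryo carried is not stated by the labels or the methods. All embryos came from crosses between *Rreb1*+/- mice, labelled as strain CD1, and received no treatment. The methods describe these mice as outbred to CD1 and kept on a mixed genetic background. The parietal endoderm was taken off for genotyping, and polyadenylated RNA was prepared from the rest of each embryo.

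These proteins belong to, or restrain, the metzincins, zinc-dependent proteases that cut matrix proteins and the outer parts of membrane proteins. MMPs cleave collagens, laminins and other matrix proteins, ADAMs sit in the membrane and release growth factors, Notch and adhesion molecules from the cell surface, and ADAMTS proteases are secreted and process proteoglycans, procollagens and microfibril proteins. TIMPs bind the active site of these enzymes and block them. At gastrulation, basement membrane is removed below the primitive streak as cells leave the epiblast, and trophoblast uses the same enzymes at implantation.

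The values were normalized counts, that is reads per gene divided by 1 size factor per embryo, resting on 31467767 to 35786876 counted reads per embryo. *Rreb1* itself stood at 5010 ± 718 normalized counts in *Rreb1*-/- embryos and 2644 ± 211 in *Rreb1*+/+ embryos (SD, n = 5 each), summed over all its exons, so that it does not check the deleted exon. Summed Y-linked counts were 2.12 in *Rreb1*-/- replicate 2, 5849 to 9171 in the other 4 *Rreb1*-/- embryos and 0 to 3.82 in the 5 *Rreb1*+/+ embryos, so that genotype and sex coincided in all embryos but 1. Replicates 5 and 6 of both genotypes stood apart from replicates 2 to 4 on the first principal component of all tested genes. This component held 37% of the variance and also set the genotypes apart within each replicate set. In replicates 2 to 4, *Rreb1*-/- embryos lay at -47.5 to -43.7 and *Rreb1*+/+ embryos at -6.77 to -3.64. In replicates 5 and 6, *Rreb1*-/- embryos lay at 27.8 and 33.9 and *Rreb1*+/+ embryos at 48.2 and 44.5. The study describes *Rreb1*-/- embryos as delayed, and from E7.5 as smaller than wild-type littermates. The part of stage in the genotype differences was not tested. The primitive streak gene *T* was present in every embryo, at 1619.8 to 6693.0 normalized counts in mutant (*Rreb1*-/-) and 1881.2 to 9627.0 in wild-type (*Rreb1*+/+) embryos. Of 11 markers of the E7.5 embryo only the visceral endoderm gene *Afp* was called between genotypes (limma, adjusted p = 0.0157), being lower in *Rreb1*-/- embryos. Of all tested genes, 1.15% were called lower. *Eomes* was not called (log2 fold change 0.91, limma, adjusted p = 0.506). In replicates 2 to 4 it was at 4549.1 to 5857.6 in mutant and 1560.0 to 1927.7 in wild-type embryos. In replicates 5 and 6 *Eomes* was at 641.5 to 747.2 in mutant and 720.2 to 758.3 in wild-type embryos. Parietal endoderm markers (12 of 12 in the table) summed to 110751 and 122598 normalized counts in *Rreb1*-/- replicates 2 and 6, to 59776 to 65485 in the other *Rreb1*-/- embryos and to 62016 to 81153 in *Rreb1*+/+ embryos.

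The comparison of genotypes used limma on log2(normalized count + 1), and a gene is called higher or lower at a Benjamini-Hochberg adjusted p under 0.05 over all 15603 genes tested. Fold changes are *Rreb1*-/- over *Rreb1*+/+ on this log2 scale, where the change of weakly expressed genes is understated. Of the 60 members, 46 reached a mean of 15 in at least 1 genotype and were tested, *Adamts16* only through its *Rreb1*-/- mean. Of these, 3 were higher in *Rreb1*-/- embryos, all ADAM genes: *Adam19*, *Adam22* and *Adam23*. That is 6.52% of the tested members, against 3.11% of all tested genes called higher. None was lower, where 1.15% of all tested genes were. At an unadjusted limma p under 0.05 there were 6 higher (13%, against 9.74% of all tested genes) and 1 lower (2.17%, against 8.21%), and edgeR and DESeq2 on the recovered reads also called 0 lower (1.08% and 2.86% of all tested genes). These tools called 2 and 3 members higher, against 3.24% and 5.24% of all tested genes. The median log2 fold change was 0.01 over the tested members and -0.02 over all tested genes. The values of *Adam19* and *Adam22* (2 of 46, 4.35%) did not overlap between genotypes with *Rreb1*-/- higher, as for 4.24% of all tested genes, and no member had non-overlapping values with *Rreb1*-/- lower (2.46% of all tested genes). In whole embryos, a larger share of cells of a type and more RNA per cell cannot be told apart. With the Y-linked sum added to the fit as a covariate, 0 of the 46 members were called, when 0.532% of all tested genes were called higher and 0.154% lower. Of the mutants, only *Rreb1*-/- replicate 2 had Y-linked counts as low as the wild-type embryos. For genotype this fit thus rests mainly on that 1 embryo, which also had a high sum of parietal endoderm markers.

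**Figure D1:**
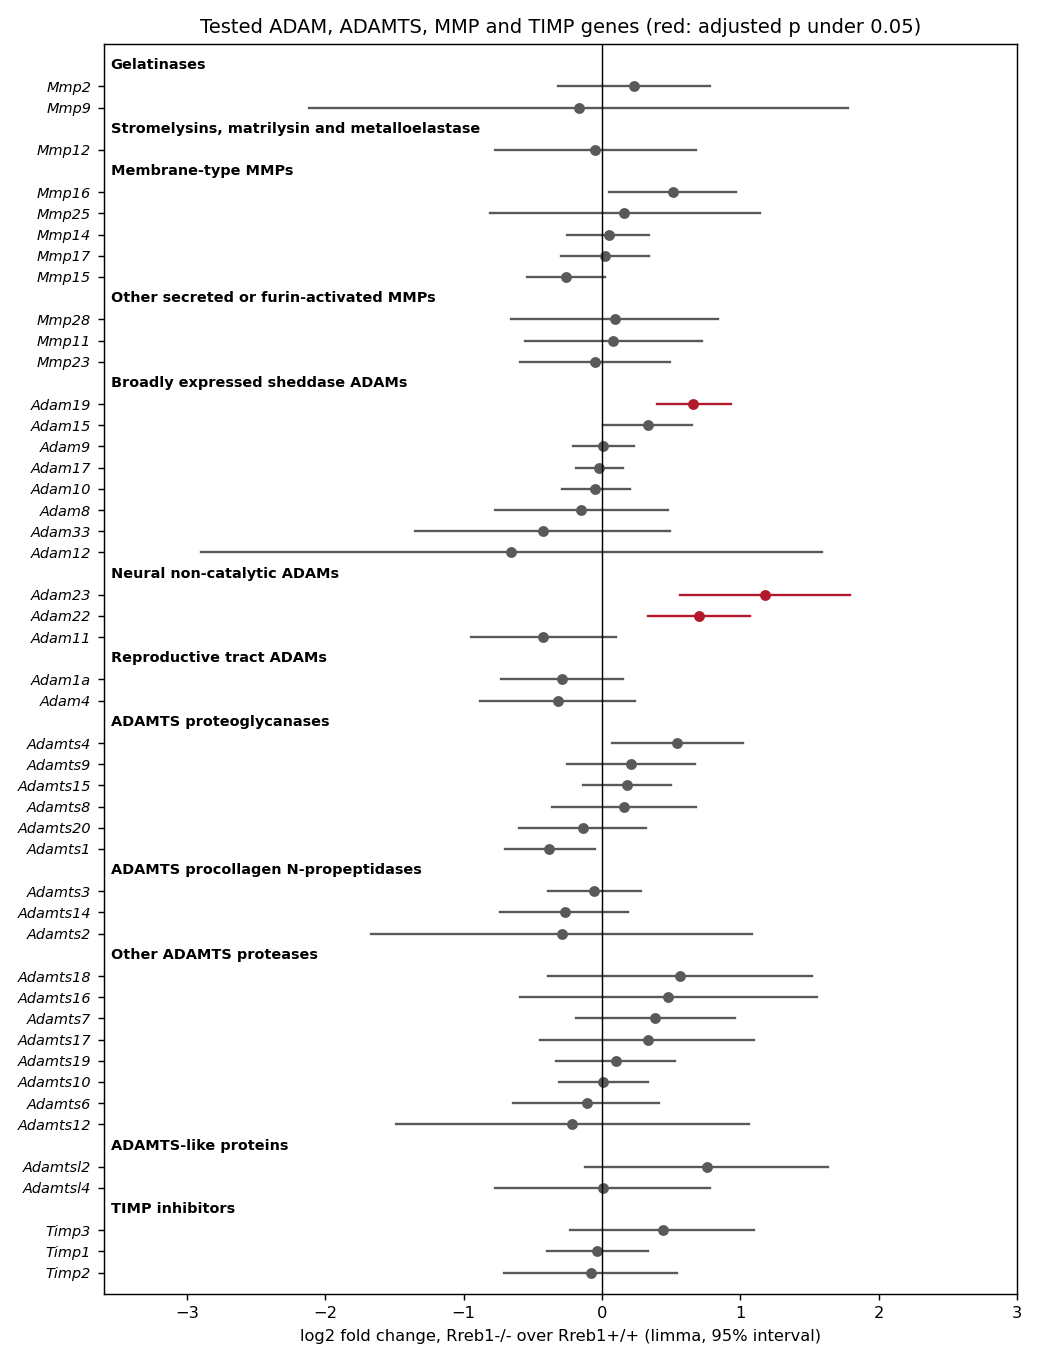
Log2 fold change of each tested member, *Rreb1*-/- over *Rreb1*+/+ embryos, with its 95% confidence interval (limma, n = 5 embryos each), grouped by role. The 3 red points, *Adam19*, *Adam22* and *Adam23*, are the members with an adjusted p under 0.05.

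*Adam19* (ENSMUSG00000011256, chr11:46055992-46147343, plus strand, GRCm38) encodes meltrin beta, a membrane protease that sheds neuregulin and is known in mouse for its part in heart valve and septum formation. Its normalized counts were 4369.9, 4139.8, 3884.4, 3123.4 and 3161.6 in the *Rreb1*-/- embryos (replicates 2 to 6), against 2001.4, 2550.9, 2830.9, 2272.1 and 2117.6 in the *Rreb1*+/+ embryos. All mutant embryos thus lay above all wild-type embryos. The means were 3736 ± 568 in mutant and 2355 ± 337 in wild-type embryos (SD, n = 5 each), a ratio of 1.59. The log2 fold change was 0.66 (standard error 0.12, 95% interval 0.40 to 0.93, limma, adjusted p = 0.00995), and an exact two-sided permutation test gave p = 0.00794, the smallest that 5 against 5 embryos allow. *Adam19* was also called by edgeR (adjusted p = 0.00988) and without any 1 of the 10 embryos (limma, adjusted p = 0.0085 to 0.0304). It was 0.76 in replicates 2 to 4 alone (limma, adjusted p = 0.0233) and 0.52 in replicates 5 and 6 alone (adjusted p = 0.087). With the Y-linked covariate it was 0.88 (limma, adjusted p = 0.103). The antisense gene *Gm16033* shares 587 exonic bases with *Adam19*, and stood at 0 to 5.2 normalized counts. A second antisense gene, *Gm16034*, shares 480 and was not analysed here.

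*Adam22* (ENSMUSG00000040537, chr5:8072352-8368160, minus strand) and *Adam23* (ENSMUSG00000025964, chr1:63445891-63596276, plus strand) encode ADAMs without protease activity that act in neurons as receptors of the secreted LGI proteins. *Adam22* had 246.9, 289.9, 402.5, 455.4 and 351.5 normalized counts in *Rreb1*-/- embryos, against 196.7, 244.0, 187.1, 232.4 and 193.1 in *Rreb1*+/+ embryos. The lowest mutant embryo, replicate 2, lay just above the highest wild-type embryo, replicate 3. The means of *Adam22* were 349 ± 83.8 and 211 ± 25.7 in *Rreb1*-/- and *Rreb1*+/+ embryos (SD, n = 5 each), with a log2 fold change of 0.70 (standard error 0.17, 95% interval 0.33 to 1.07, limma, adjusted p = 0.0393; exact permutation p = 0.00794). *Adam23* had 526.6, 568.4, 641.4, 525.1 and 368.2 normalized counts in *Rreb1*-/- embryos, against 160.2, 409.6, 130.8, 273.7 and 264.7 in *Rreb1*+/+ embryos. Here the groups overlapped, since *Rreb1*+/+ replicate 3 exceeded *Rreb1*-/- replicate 6. *Adam23* averaged 526 ± 100 in mutant and 248 ± 110 in wild-type embryos (SD, n = 5 each), and its log2 fold change was 1.18 (standard error 0.28, 95% interval 0.56 to 1.79, limma, adjusted p = 0.0392; exact permutation p = 0.0159).

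Both calls were less stable than that of *Adam19*. *Adam23* missed the threshold by edgeR (log2 fold change 1.09, adjusted p = 0.0539). *Adam22* kept its call only without *Rreb1*-/- replicate 2 or 3 (limma, adjusted p = 0.0153 and 0.0477), and its adjusted p was 0.0575 to 0.0962 without any other single embryo. *Adam23* kept its call only without *Rreb1*+/+ replicate 3 or *Rreb1*-/- replicate 6 (limma, adjusted p = 0.014 and 0.0345), and was at 0.0649 to 0.0944 otherwise. With the Y-linked covariate, *Adam22* had a log2 fold change of only 0.22 (limma, adjusted p = 0.647), while *Adam23* stood at 1.37 (adjusted p = 0.205). For *Adam11*, the remaining member of this neural group, it was -0.43 (95% interval -0.95 to 0.10, limma, adjusted p = 0.384), with 95.4 ± 25.4 normalized counts in mutant and 127 ± 30 in wild-type embryos. Of the LGI ligands, chosen here after their values were seen, only *Lgi2* reached the minimum for a test, at 493 ± 214 in *Rreb1*-/- and 379 ± 115 in *Rreb1*+/+ embryos (log2 fold change 0.33, limma, adjusted p = 0.587).

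**Figure D2:**
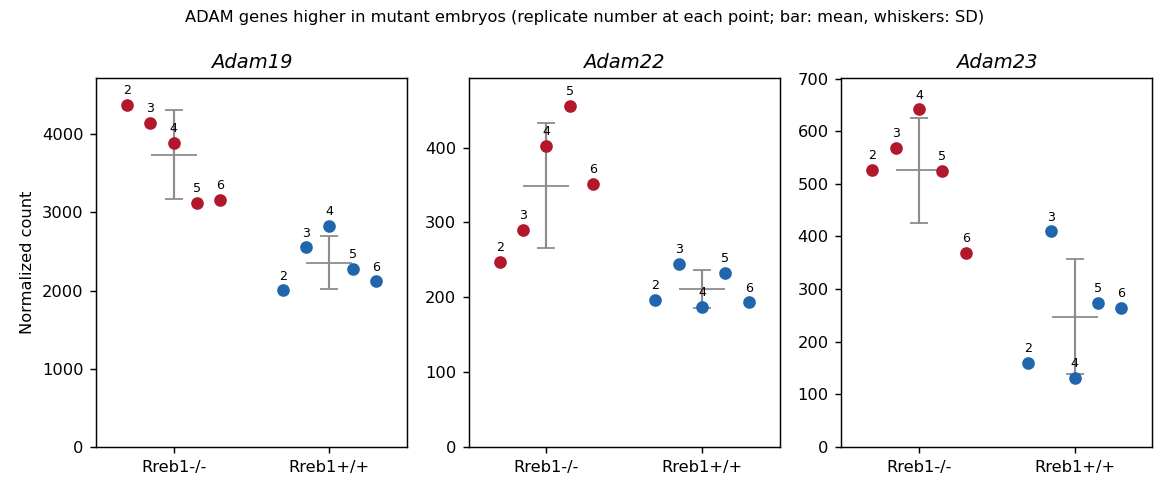
Normalized counts of *Adam19*, *Adam22* and *Adam23* in each embryo, with the replicate number at each point and the mean and SD of each genotype (n = 5). The *Rreb1*-/- points lie above all *Rreb1*+/+ points for *Adam19* and *Adam22*, and overlap them for *Adam23*.

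Because these 3 genes were all higher in *Rreb1*-/- embryos, their promoters are shown, from 250 bases before to 50 bases after the annotated start (RefSeq, GRCm38.p6, each read 5′ to 3′ on the strand of its gene). Capitals mark matches, on either strand, to TGANTCA (the AP-1 site), GGGCGG (the GC box), CACCTG (an E-box bound by SNAIL and ZEB factors) or AACCACC (the centre of the RREB1 recognition sequence). The windows are chr11:46055734-46056033 for *Adam19*, chr5:8368111-8368410 (minus strand) for *Adam22* and chr1:63445641-63445940 for *Adam23*.
Adam19: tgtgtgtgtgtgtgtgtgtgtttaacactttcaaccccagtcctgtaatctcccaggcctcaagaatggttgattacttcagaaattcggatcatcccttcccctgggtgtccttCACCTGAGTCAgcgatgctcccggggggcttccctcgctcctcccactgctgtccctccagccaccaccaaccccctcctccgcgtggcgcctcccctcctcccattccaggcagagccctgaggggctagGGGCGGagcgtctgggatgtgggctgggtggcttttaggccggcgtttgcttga
Adam22: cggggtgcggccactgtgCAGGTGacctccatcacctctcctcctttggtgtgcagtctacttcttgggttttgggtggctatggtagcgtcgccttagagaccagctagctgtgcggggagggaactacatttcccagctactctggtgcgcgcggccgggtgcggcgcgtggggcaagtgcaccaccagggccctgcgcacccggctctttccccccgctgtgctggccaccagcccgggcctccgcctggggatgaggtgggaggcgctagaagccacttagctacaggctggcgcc
Adam23: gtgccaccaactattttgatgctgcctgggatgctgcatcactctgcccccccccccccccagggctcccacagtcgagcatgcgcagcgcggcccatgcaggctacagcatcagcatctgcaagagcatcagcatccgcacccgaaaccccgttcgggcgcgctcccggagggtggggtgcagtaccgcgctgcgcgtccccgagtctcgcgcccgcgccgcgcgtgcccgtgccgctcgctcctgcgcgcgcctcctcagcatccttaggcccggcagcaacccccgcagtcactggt

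The *Adam19* window held TGAGTCA, which starts 131 bases before the gene start, a CACCTG that overlaps it by its last bases, and a GGGCGG. The *Adam22* window held 1 CACCTG, read as CAGGTG on the gene's strand, and the *Adam23* window held none of the 4 motifs. TGANTCA was present in 7.81% of all 32851 mouse promoter windows of this length, GGGCGG in 35.7%, CACCTG in 20.2% and AACCACC in 3.3%. Windows were found for 37 of the 60 members (41 windows), of which 4 held TGANTCA, 26 GGGCGG, 9 CACCTG and 1 AACCACC, that of *Adamtsl4*. The GC content was 60.3% for *Adam19*, 66.3% for *Adam22* and 70% for *Adam23*, against a median of 52.7% over all windows, and the number of CpG sites was 11, 19 and 31 in the same order, against a median of 7.

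Of the other 7 sheddase ADAMs none was called, among them the most abundant protease genes of the set. Per kb of exon, *Adam10*, which cleaves Notch receptors and cadherins, stood at 695 ± 84.1 in mutant and 720 ± 103 in wild-type embryos (SD, n = 5 each), the highest level of any member. *Adam17*, which releases ligands of the EGF receptor, followed with 451 ± 29.7 in *Rreb1*-/- and 458 ± 44.7 in *Rreb1*+/+ embryos, a level close to that of *Adam19* (525 ± 79.9 and 331 ± 47.3 per kb in the same order of genotypes). The log2 fold change was -0.05 for *Adam10* (95% interval -0.29 to 0.20, limma, adjusted p = 0.867) and -0.02 for *Adam17* (-0.19 to 0.15, adjusted p = 0.923), the narrowest interval of these genes. *Adam15*, named here after its values were seen, had 570 ± 107 normalized counts in mutant and 452 ± 74.8 in wild-type embryos (log2 fold change 0.33, limma, adjusted p = 0.264). The remaining sheddases with tested values had log2 fold changes of -0.66 to 0.01. *Adam1a* and *Adam4*, relatives of the sperm ADAMs, were low and had log2 fold changes of -0.29 and -0.32 (limma, adjusted p = 0.487 and 0.553). The exons of *Adam1a* overlap those of 2 genes on its own strand, so that its counts are uncertain.

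**Figure D3:**
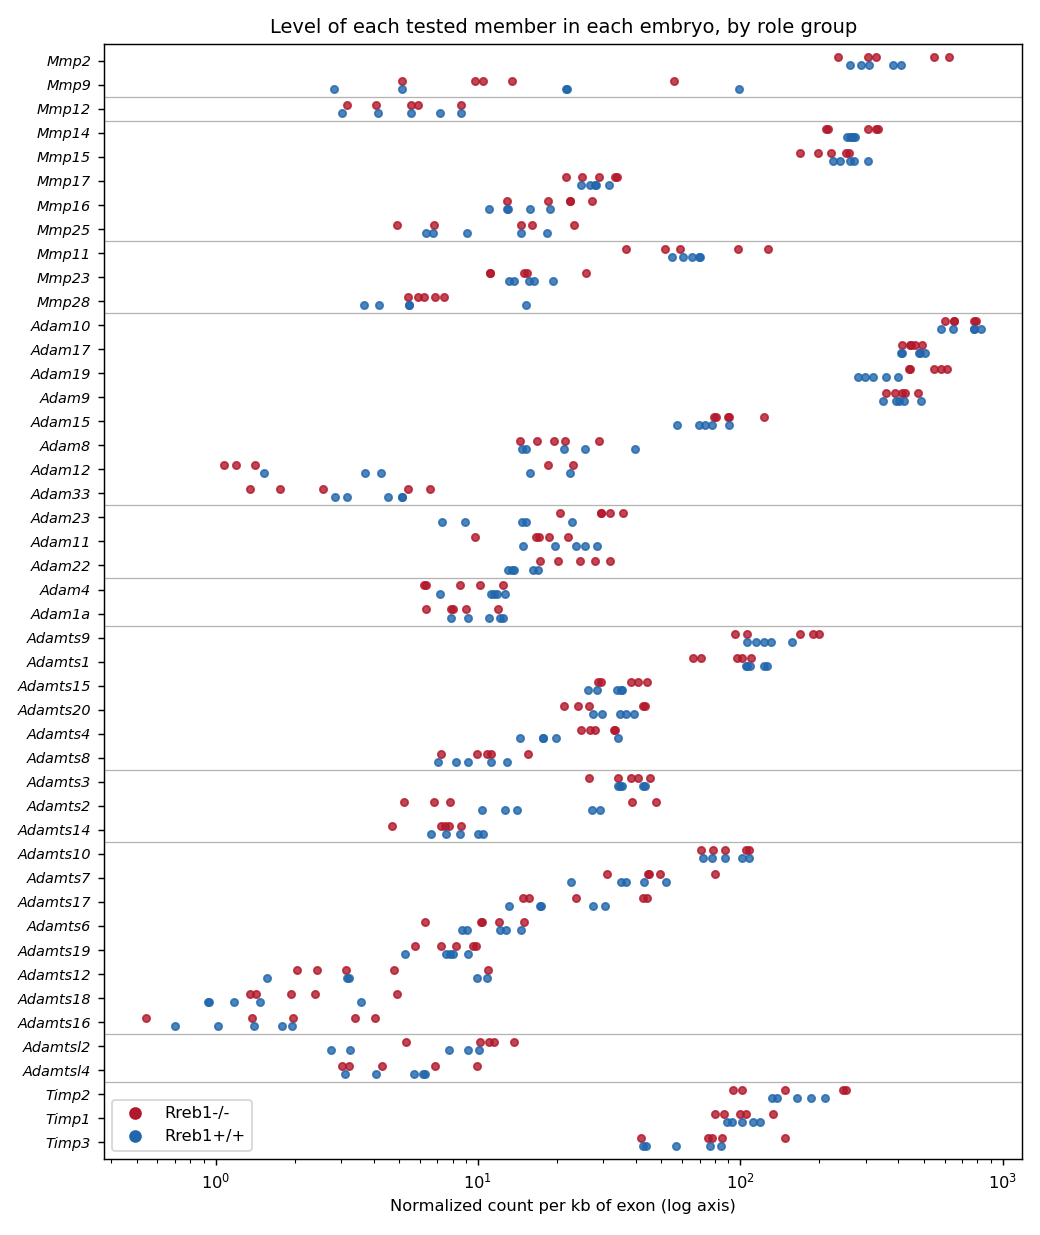
Normalized count per kb of exon of each tested member in each embryo on a log axis, with *Rreb1*-/- embryos in red above *Rreb1*+/+ embryos in blue, and lines between role groups. *Adam10* is the most abundant member, and the 2 colours separate only in *Adam19* and *Adam22*.

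None of the 11 tested MMP genes was called, and their median log2 fold change was 0.05 (range -0.26 to 0.51). *Mmp2*, the gelatinase that degrades collagen IV, was the most abundant of them per kb of exon. Its normalized counts were 1028.9, 1105.6, 797.5, 2105.8 and 1841.1 in *Rreb1*-/- embryos, against 1043.9, 967.8, 879.4, 1380.9 and 1283.0 in *Rreb1*+/+ embryos. Replicates 5 and 6 were the high ones in both genotypes, and the log2 fold change was 0.23 (95% interval -0.32 to 0.78, limma, adjusted p = 0.674). *Mmp14*, the membrane-anchored activator of MMP2, had 1262.0 to 1988.7 normalized counts in mutant and 1517.8 to 1627.7 in wild-type embryos, with the same centre but a wider spread among mutants (log2 fold change 0.05, 95% interval -0.25 to 0.34, limma, adjusted p = 0.894). *Mmp15*, a second membrane-type enzyme, had a log2 fold change of -0.26 (95% interval -0.54 to 0.02, limma, adjusted p = 0.313). The largest log2 fold change among the MMPs was that of *Mmp16*, named here after its values were seen, at 179 ± 46 normalized counts in mutant and 124 ± 26.1 in wild-type embryos (log2 fold change 0.51, limma, adjusted p = 0.231).

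*Mmp9*, the gelatinase known in trophoblast giant cells and leukocytes, was set by single embryos. It had 37.1, 47.8, 18.1, 34.4 and 197.1 normalized counts in *Rreb1*-/- embryos, against 76.8, 10, 18.1, 349.6 and 77.2 in *Rreb1*+/+ embryos. *Rreb1*-/- replicate 6 and *Rreb1*+/+ replicate 5 stood far above the rest of their genotypes, and the log2 fold change of -0.17 had a 95% interval of -2.12 to 1.78 (limma, adjusted p = 0.943). In the same embryos the giant cell hormone gene *Prl3d1* was at 765.6 in *Rreb1*-/- replicate 6 and 666.5 in *Rreb1*+/+ replicate 5, against 0 to 148.7 in the other 8. The leukocyte gene *Ptprc* was at 28.2 and 40.3 in these embryos and at 0 to 2.9 in the others. Over all 9 trophoblast markers in the table (of 12), the sum was 3244 to 10288 normalized counts in mutant and 4433 to 7670 in wild-type embryos. It was 10288 in *Rreb1*-/- replicate 6, 7497 in *Rreb1*+/+ replicate 5 and 7670 in *Rreb1*+/+ replicate 6. *Hand1*, also listed as a marker of extraembryonic and lateral mesoderm, made up 6975.2, 4627.8 and 6580.0 of these sums. *Prl7a1* was at 1270.5 in *Rreb1*-/- replicate 6 and 1113.0 in *Rreb1*+/+ replicate 5, against 0 to 18.8 in the other embryos. *Ascl2* was highest in *Rreb1*+/+ replicate 6, at 935.4. *Tpbpa* of this list was at 0 in 7 embryos and highest in *Rreb1*+/+ replicate 6, at 64.1. Over 8 leukocyte markers (of 10) the sum was 104 to 373 in mutant and 217 to 429 in wild-type embryos. It was 373 in *Rreb1*-/- replicate 6 and 429 in *Rreb1*+/+ replicate 5. Of 4 tested leukocyte markers 1 was called, *Fcgr3*, which was lower in mutants, as were 1.15% of all tested genes. It had 44.1 ± 18.5 in mutant and 156 ± 42.2 in wild-type embryos, without overlap (log2 fold change -1.88, limma, adjusted p = 0.00926). *Fcgr3* was at 62.6 in *Rreb1*-/- replicate 6 and 182.5 in *Rreb1*+/+ replicate 5, and highest in *Rreb1*+/+ replicate 6, at 194.1. It did not follow *Ptprc*, which was at 0.9 in *Rreb1*+/+ replicate 6. In *Rreb1*+/+ replicate 3 *Fcgr3* was at 109.4 and *Ptprc* at 0. *Fcgr3* and *Cd68* made up most of the leukocyte sums, which therefore do not measure the amount of leukocytes. The part of trophoblast and leukocytes in the *Mmp9* values was not tested. *Mmp12*, the macrophage metalloelastase, ranged over 22.9 to 62.5 in *Rreb1*-/- and 22.0 to 62.4 in *Rreb1*+/+ embryos (log2 fold change -0.05, limma, adjusted p = 0.961).

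Over all 10 embryos, no ADAMTS or ADAMTS-like gene was called among the 19 tested, with log2 fold changes of -0.38 to 0.76. The proteoglycanase *Adamts9* was the most abundant, at 2836.6, 1589.8, 1432.5, 2550.0 and 3008.3 normalized counts in *Rreb1*-/- and 1857.5, 1728.7, 1602.1, 2370.1 and 1966.0 in *Rreb1*+/+ embryos. The 3 highest values were those of *Rreb1*-/- replicates 6, 2 and 5, of which replicates 2 and 6 also had the high sums of parietal endoderm markers given above, whose part in the result was not tested. The log2 fold change of *Adamts9* was 0.21 (95% interval -0.25 to 0.67, limma, adjusted p = 0.645). *Adamts1*, which cleaves versican, had 472 ± 104 normalized counts in mutant and 603 ± 53.1 in wild-type embryos (log2 fold change -0.38, 95% interval -0.70 to -0.05, limma, adjusted p = 0.208), the only member with an unadjusted p under 0.05 and a lower mean in mutants. *Adamts4*, a versican and aggrecan protease named here after its values were seen, had 140 ± 18.7 in *Rreb1*-/- and 99.9 ± 37.5 in *Rreb1*+/+ embryos (log2 fold change 0.54, limma, adjusted p = 0.217). Without *Rreb1*+/+ replicate 6, its highest embryo at 164.9, *Adamts4* was called (log2 fold change 0.74, limma, adjusted p = 0.0348). The procollagen processing enzymes *Adamts2* and *Adamts3* had log2 fold changes of -0.29 and -0.06 (limma, adjusted p = 0.852 and 0.888). *Adamts10*, which binds fibrillin microfibrils, had 743 ± 135 normalized counts in mutant and 736 ± 124 in wild-type embryos, and *Adamts7*, which cleaves cartilage oligomeric matrix protein, had 314 ± 115 and 238 ± 67.9 in the same order of genotypes. *Adamtsl2*, a microfibril protein without a protease domain, had the largest log2 fold change here, 0.76 (95% interval -0.12 to 1.63, limma, adjusted p = 0.35).

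Of the inhibitors, none was called. *Timp3*, which stays bound to the matrix and also blocks ADAM and ADAMTS enzymes, had 1203.7, 635.9, 694.5, 341.1 and 611.3 normalized counts in *Rreb1*-/- embryos, against 462.4, 624.4, 684.6, 354.4 and 346.7 in *Rreb1*+/+ embryos. *Rreb1*-/- replicate 2 was the highest by far, and the remaining mutants lay within the wild-type range or close to it. The log2 fold change was 0.44 (95% interval -0.23 to 1.10, limma, adjusted p = 0.491), and 0.21 without that embryo, which is 1 of the 2 with a high sum of parietal endoderm markers. *Timp3* shares 1733 exonic bases with *Syn3* on the opposite strand, which stood at only 10.6 to 23.4 normalized counts. *Timp2*, the inhibitor that MMP14 uses to capture and activate MMP2, had 577.5, 393.8, 364.2, 957.2 and 985.7 in *Rreb1*-/- embryos, against 723.4, 536.1, 514.6, 821.1 and 638.7 in *Rreb1*+/+ embryos (log2 fold change -0.08, 95% interval -0.71 to 0.54, limma, adjusted p = 0.911). The mutant embryos lay on both sides of the wild-type range, with replicates 5 and 6 above it and 3 and 4 below it. The X-linked *Timp1*, a soluble inhibitor, had 70.9 to 118.7 in *Rreb1*-/- and 78.7 to 105.5 in *Rreb1*+/+ embryos (log2 fold change -0.04, 95% interval -0.40 to 0.33, limma, adjusted p = 0.932). *Timp4* was below the minimum for a test, at 7.3 to 18.8 and 8.6 to 15.4 in the same order of genotypes.

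To set proteases against inhibitors, the levels per kb of all 15 MMP genes and of all 4 TIMP genes were summed in each embryo. The MMP sum was 816, 1039, 816, 1460 and 1355 in *Rreb1*-/- embryos, against 995, 973, 920, 1166 and 1144 in *Rreb1*+/+ embryos. The TIMP sum was 431, 280, 286, 377 and 411 in *Rreb1*-/- embryos, against 338, 328, 319, 344 and 327 in *Rreb1*+/+ embryos. Both sums spread more widely among mutants, whose values enclosed the wild-type range. The ratio of MMP to TIMP was 1.89, 3.71, 2.85, 3.88 and 3.3 in *Rreb1*-/- embryos, against 2.94, 2.97, 2.88, 3.39 and 3.5 in *Rreb1*+/+ embryos. Its mean log2 was 1.60 ± 0.42 in mutant and 1.64 ± 0.13 in wild-type embryos (SD, n = 5 each), a difference of -0.04 that is smaller than either SD. Without *Rreb1*-/- replicate 2, which had the lowest ratio, the difference was 0.13. *Timp3* made up 34.3% of the TIMP sum in that embryo, 11.1% to 29.8% in the other *Rreb1*-/- embryos and 12.6% to 26.4% in *Rreb1*+/+ embryos. Since the genes were chosen with earlier results of these data known, this ratio is described and not tested, and RNA levels do not measure the active enzymes.

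**Figure D4:**
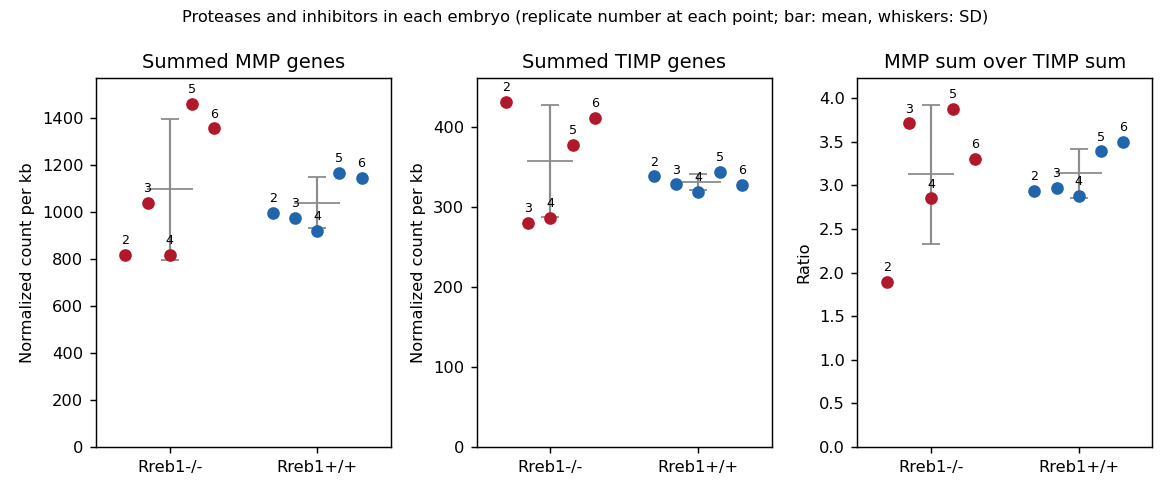
Summed MMP level, summed TIMP level (normalized counts per kb of exon) and their ratio in each embryo, with the replicate number at each point and the mean and SD of each genotype (n = 5). The ratio is 1.89 in *Rreb1*-/- replicate 2 and between 2.85 and 3.88 in the other 9 embryos.

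Several members separated the embryos by replicate number, in the same direction in both genotypes but not always by the same amount. In 8 of the 46 tested members (17.4%), the 4 embryos of replicates 5 and 6 all lay above the 6 embryos of replicates 2 to 4, as did 5.37% of all tested genes, and in 0 members did they all lie below (3.29% of all tested genes). These were *Adam12*, *Adamts2*, *Adamts12*, *Adamts17*, *Adamts20*, *Adamtsl4*, *Mmp2* and *Mmp11*. The split was first seen in these data, so it is given as a description. *Adam12*, meltrin alpha, a protease of mesenchyme and forming muscle, showed it most clearly, at 244.4 and 195.1 normalized counts in *Rreb1*-/- replicates 5 and 6 and 12.7, 11.4 and 14.9 in replicates 2 to 4. The *Rreb1*+/+ embryos had 237.2 and 166.7 in replicates 5 and 6, and 45.1, 39.2 and 16.2 in replicates 2 to 4. *Adamts2*, which processes fibrillar procollagens, was at 446.1 and 362.0 in *Rreb1*-/- replicates 5 and 6 and 271.8 and 253.4 in those of *Rreb1*+/+ embryos, against 48.8 to 131.5 in the 6 other embryos. *Mmp11*, stromelysin 3, an enzyme of mesenchyme next to epithelium, had 354.1 and 273.3 in *Rreb1*-/- replicates 5 and 6, but 193.0 and 195.0 in those of *Rreb1*+/+ embryos, just above the 101.7 to 181.4 of the other embryos. In the same embryos the streak gene *T* was lower, at 1619.8 to 2619.2 in replicates 5 and 6 and 4736.5 to 9627.0 in replicates 2 to 4. The part of stage in this split was not tested. For *Adam12* and *Adamts2* the wide spread left the genotype difference poorly measured, with 95% intervals of -2.90 to 1.59 and -1.67 to 1.08 on the log2 scale.

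**Figure D5:**
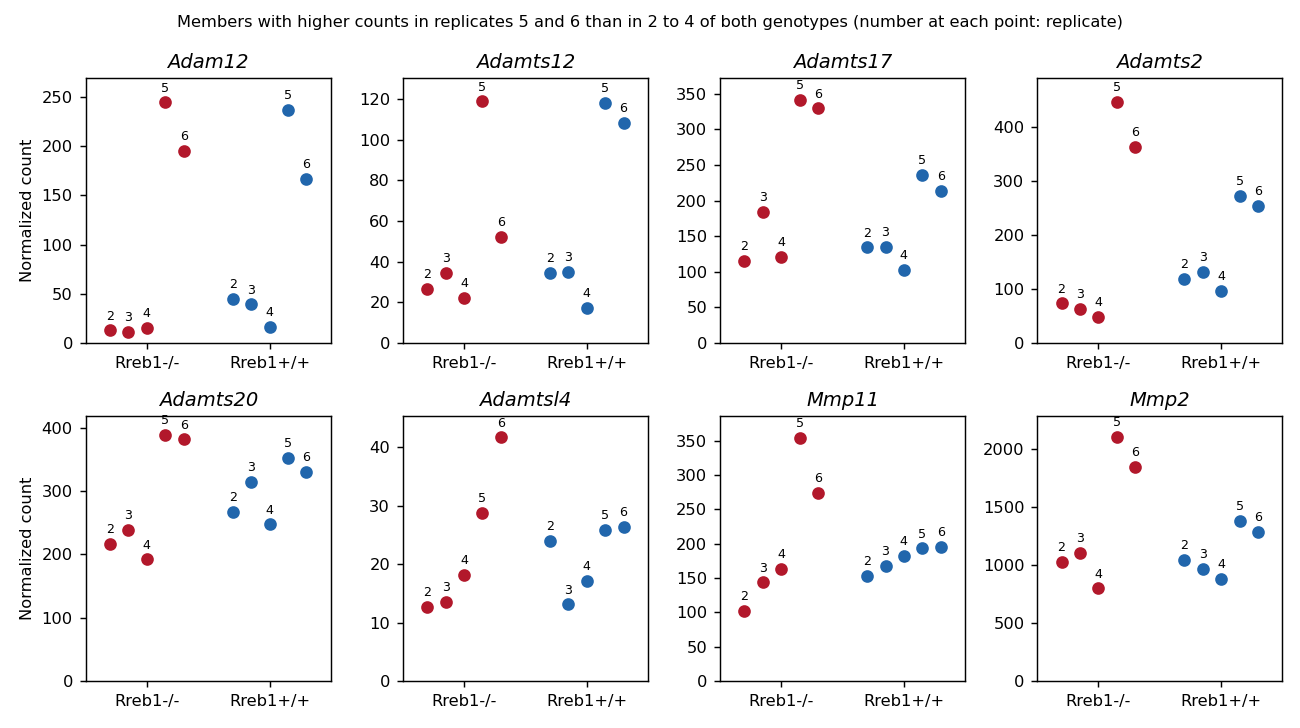
Normalized counts of the 8 members whose 4 embryos of replicates 5 and 6 all lie above the 6 embryos of replicates 2 to 4, by genotype, with the replicate number at each point. The gap is widest for *Adam12*, where replicates 5 and 6 lie at 166.7 to 244.4 and the others at 11.4 to 45.1.

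The genes that act with these enzymes were given by lists. Among 27 tested activators and regulators of the proteases, 2 were higher and 1 lower, beside the 3.11% higher and 1.15% lower of all tested genes. *Plat*, the tissue plasminogen activator and also a parietal endoderm gene, had 1159.2, 710.7, 936.6, 1226.7 and 1655.4 normalized counts in *Rreb1*-/- embryos, against 293.6, 371.4, 331.3, 551.2 and 506.8 in *Rreb1*+/+ embryos. The groups did not overlap, and the log2 fold change was 1.45 (standard error 0.23, limma, adjusted p = 0.0049). *Plat* is itself 1 of the 12 summed parietal endoderm markers, whose part in its values was not tested. *Spock3*, which encodes a testican, a proteoglycan that in human restrains membrane-type MMPs, had 50.3 ± 13.4 in *Rreb1*-/- and 15.4 ± 3.78 in *Rreb1*+/+ embryos (log2 fold change 1.63, limma, adjusted p = 0.00425). *Plg*, the plasminogen that *Plat* activates, was lower, at 454 ± 85.2 in *Rreb1*-/- and 684 ± 97.6 in *Rreb1*+/+ embryos (log2 fold change -0.60, limma, adjusted p = 0.0314). Among 22 tested membrane proteins shed by ADAM10 or ADAM17, only the EGF receptor ligand *Tgfa* was called (lower, as were 1.15% of all tested genes), with 223 ± 40.2 in *Rreb1*-/- and 338 ± 31.9 in *Rreb1*+/+ embryos and no overlap (log2 fold change -0.61, limma, adjusted p = 0.027). None of the 21 tested matrix substrates was called (median log2 fold change 0.06, range -1.61 to 0.44), nor any of the 4 tested astacin and pappalysin proteases.

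The 14 members below the minimum for a test never exceeded 18.8 normalized counts in *Rreb1*-/- or 16.2 in *Rreb1*+/+ embryos. They included *Adamts5*, the main aggrecanase of cartilage, *Mmp1a*, the only collagenase in the table, the membrane-type *Mmp24*, and 5 ADAMs of the reproductive tract. *Mmp1a* was at 0 in 7 embryos and at 4.2 in *Rreb1*-/- replicate 6, 12.5 in *Rreb1*+/+ replicate 5 and 4.7 in *Rreb1*+/+ replicate 6. The values of all 14 overlapped between genotypes.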

How the data were processed

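RNA from 10 single E7.5 embryos was sequenced by the study. The authors aligned reads with STAR, counted them on genes by HTSeq and scaled them by DESeq. Per gene and embryo, the deposited signal is a read count over the embryo's size factor (a normalized count). The sources used here do not name the build, the gene models or the use of strand in counting. Reads were recovered from each embryo's smallest step (100% of values whole within 0.1 read) and used for depth and for edgeR and DESeq2.

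Genes whose mean reached 15 in either genotype were compared on log2(value + 1) with limma 3.58.1 (eBayes with a trend, R 4.3.3), and p-values adjusted with Benjamini-Hochberg over all 15603 genes. For single genes an exact permutation test, two-sided, ran over 252 arrangements. Alternatives were edgeR 4.0.16, DESeq2 1.42.0, TMM and quantile scaling, pseudocounts of 0.5 and 5, no filter and a mean of 50, a replicate block, a Y-linked covariate, replicate subsets and leaving out each embryo. Deviations of same-numbered embryos from their genotype means, by the labels' numbers, were positively correlated (0.253 to 0.459). Only 3 of the 10 embryos were most alike the same-numbered embryo of the other genotype, so the numbers do not establish pairs. Positions and exon lengths came from GENCODE M21 (GRCm38, 20884 genes matched), promoters from RefSeq. In that annotation 16 members share exonic bases with a gene on the opposite strand, whose reads are told apart only if strand was used. Each embryo was its own library, and p-values measure the spread between embryos.

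The members and lists were chosen with earlier results of these data known. The text names called members, all TIMPs, the 2 most abundant members of each role group, the 5 largest log2 fold changes and called genes of the lists. Others were named after their values were seen.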

Additional observations from a re-analysis of the deposited data

Results flagged for a closer look

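The tested members, *Timp4* and the MMP to TIMP ratio gave 96 sets of 5 embryos, each of 1 genotype. In 7 of them a single embryo stood apart from the rest by Dixon's criterion (gap over range above 0.71). Chance flags about 1 in 20 such sets. *Mmp9* was at 197.1 normalized counts in *Rreb1*-/- replicate 6, with the next mutant embryo at 47.8, and at 349.6 in *Rreb1*+/+ replicate 5, with the next wild-type embryo at 77.2. *Adam4*, a low gene related to the sperm ADAMs, was at 17.9 in *Rreb1*+/+ replicate 6, with the next wild-type embryo at 28.1. *Adam15* was at 753.4 in *Rreb1*-/- replicate 3, with the next mutant embryo at 556.6. In *Rreb1*+/+ replicate 6, *Adamts4* was at 164.9, with the next wild-type embryo at 95, and *Mmp28* was at 59.3, with the next at 21.1. *Adamts18* was at 36.5 in *Rreb1*+/+ replicate 5, with the next wild-type embryo at 15.1.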

How the results depend on the processing

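The count of 3 members higher in *Rreb1*-/- embryos stayed at 3, with 0 lower, by DESeq2, with TMM or quantile scaling, either pseudocount, either filter and the replicate block, and was 2 by edgeR. Under these settings, 2.21% to 5.24% of all tested genes were called higher and 0.815% to 2.86% lower. The fit with the replicate block called the same 3 genes (limma, adjusted p = 0.00887 for *Adam19*, 0.0346 for *Adam22* and 0.0417 for *Adam23*) and changed no other call of a member. With the block, 4.59% of all tested genes were called higher and 2.28% lower. The count was 1 (*Adam19*) in replicates 2 to 4 alone, 0 in replicates 5 and 6 alone and 0 with the Y-linked covariate, and 1 to 2 when single embryos were left out. In the same order, 2.17%, 0.545%, 0.532% and 2.19% to 2.79% of all tested genes were called higher. The member count was 1 when mutant replicate 4 or 5, or wild-type replicate 2, 4 or 5, was left out. Without wild-type replicate 6 the 2 called genes were *Adam19* and *Adamts4*, and in the other cases with 2 calls they were *Adam19* with *Adam22* or *Adam23*. The smaller subsets hold fewer embryos, and otherwise the cause was not tested. The log2 difference in the MMP to TIMP ratio was -0.13 to 0.13 without single embryos, -0.18 when levels were not divided by exon length, -0.15 without *Mmp2*, -0.11 without *Timp2*, -0.11 in replicates 2 to 4 alone and 0.05 in replicates 5 and 6 alone.

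Of 656 log2 fold changes of named members under alternatives, 565 kept direction and call. Direction changed only in uncalled genes. For genotype, the fit with the Y-linked covariate rests mainly on *Rreb1*-/- replicate 2. With the Y-linked covariate the log2 fold change was 0.17 for *Adam10*, 0.13 for *Adam17*, -0.33 for *Adamts10*, 0.02 for *Adamts3*, -0.23 for *Adamtsl2*, -0.71 for *Adamtsl4*, -0.84 for *Mmp11*, 0.76 for *Mmp12*, -0.32 for *Mmp14*, -0.09 for *Mmp16*, -0.07 for *Mmp2* and 0.44 for *Timp1*. In replicates 2 to 4 alone it was 0.03 for *Adam10*, 0.09 for *Adam17*, -0.25 for *Adamtsl4*, -0.32 for *Mmp11*, 0.31 for *Mmp12*, -0.08 for *Mmp14*, 0.37 for *Mmp9* and 0.14 for *Timp1*. In replicates 5 and 6 alone it was 0.13 for *Adam12*, 0.61 for *Adamts2*, 0.01 for *Adamts3*, 0.24 for *Mmp23* and 0.42 for *Timp2*. By edgeR and by DESeq2 it was 0.19 for *Adamts2*, 0.01 for *Mmp23* and 0.02 for *Timp2*. Without single embryos it spanned -0.12 to 0.00 for *Adam10*, -0.06 to 0.02 for *Adam17*, -0.06 to 0.09 for *Adamts10*, -0.74 to 0.06 for *Adamts2*, -0.13 to 0.06 for *Adamts3*, -0.24 to 0.17 for *Adamtsl4*, -0.15 to 0.30 for *Mmp11*, -0.24 to 0.13 for *Mmp12*, -0.03 to 0.14 for *Mmp14*, -0.25 to 0.05 for *Mmp23*, -0.74 to 0.50 for *Mmp9*, -0.14 to 0.04 for *Timp1* and -0.26 to 0.10 for *Timp2*. The cause of these changes was not tested.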
